A study of Homo sapiens with 18 samples.

Results

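The long intergenic noncoding RNA (LINC) genes of MDA-MB-231 cells were followed through glucocorticoid treatment and through depletion of 2 cofactors of the glucocorticoid receptor. Members were the gene symbols made of LINC and a number that averaged at least 1 CPM (counts per 1000000 counts of the library) over the 18 libraries, with LINC00460 left out, and 137 of the 2104 LINC symbols among the 60642 symbols counted met this rule. Apart from LINC00460, which was left out by name, they were chosen by their mean level over all libraries. The rule itself names no comparison between conditions, but it was set with earlier results of these data known. The levels, on which the rule rests, are given as a description, and the comparisons were tested. A gene near the limit can still have passed the rule through the condition in which it is high. Of the members called in a depletion, LINC00211 and LINC00240 averaged 0.431 and 0.897 CPM without the siPRMT5 libraries. LINC01968, LINC02021 and LINC01546 averaged 0.851, 0.741 and 0.90 CPM without the siHP1γ libraries, and LINC00707 0.55 CPM without the siNS libraries. A change of these 6 was favoured by the rule, and their values are a description. No member called with Dex fell under the limit without the 3 libraries of its higher group. Of the other LINC symbols, 1105 had no count in any library.

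LINC genes are transcribed by RNA polymerase II, and their RNAs are usually capped, spliced and polyadenylated, but they carry no long open reading frame. Many stay in the nucleus, are made at low levels and are restricted to a few cell types. Some act on the gene next to them, others act as scaffolds for proteins or bind microRNAs, and for most no function is known. The glucocorticoid receptor (GR) is a ligand-activated transcription factor that binds DNA at its own response elements or works through other factors such as AP-1, the dimer of FOS and JUN proteins. HP1γ (gene CBX3) is a chromatin protein that reads methylated histone H3, and PRMT5 is an arginine methyltransferase.

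MDA-MB-231 is an established mesenchymal triple-negative breast cancer cell line. Cells had been transfected with a non-specific siRNA (siNS) or with pooled siRNAs against HP1γ (siHP1γ) or PRMT5 (siPRMT5), and had then received 100 nM of the synthetic glucocorticoid dexamethasone (Dex) or ethanol (Eth), its vehicle, for 8 h, with 3 replicates in each of the 6 conditions. All the cells carried their own GR, all had been transfected, and the effect of each depletion was read in 1 cell line with 1 siRNA pool. Pairs of conditions that share a set of libraries, such as both depletions against siNS, are given side by side and are not independent.

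The libraries held 8682992 to 12472381 counts. PRMT5 RNA in the siPRMT5 libraries was 2.97% of the siNS level with Eth and 4.39% with Dex, and CBX3 RNA in the siHP1γ libraries was 3.87% and 5.96% of it. Of the 6 genes listed as markers of the line, VIM, CD44, EGFR, CAV1 and AXL averaged 204 to 7463 CPM and S100A4 2.07 CPM. Some of them moved with the depletions: AXL, a receptor tyrosine kinase, had log2 fold changes of -2.13 with siPRMT5 in Eth and in Dex, EGFR -0.74 and -0.93 with siPRMT5, CAV1 -0.57 and -0.66 with siHP1γ, and S100A4 1.29 and 0.91 with siPRMT5, in Eth and Dex. Their part in the results was not tested. ESR1, PGR, CDH1 and KRT5, which mark luminal or basal epithelial cells, averaged at most 0.0440 CPM, EPCAM 11.1 CPM and GATA3 5.18 CPM. Of the genes of leukocytes, endothelium and liver, PTPRC, CD3E and ALB averaged at most 0.0467 CPM, CDH5 0.292 CPM and APOA1 0.713 CPM. PECAM1, an endothelial adhesion molecule, averaged 3.71 CPM and was higher with Dex in siNS cells by 1.67 on the log2 scale and with siHP1γ and siPRMT5 in Eth by 1.03 and 1.31, and its part in the results below was not tested. In bulk RNA, fewer cells that make a transcript and less of it per cell cannot be told apart.

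The members sat low in the range of expression. Their median of mean levels was 3.02 CPM against 23.4 CPM over the 15298 genes that passed the filter on low counts, and all 137 passed it. Between 1 and 2 CPM there were 49 members, between 2 and 10 CPM 61, and at 10 CPM or more 27. The last members inside the limit were LINC00211 (1.01 CPM), LINC02595 (1.01), LINC02321 (1.05) and LINC00707 (1.05), and the first outside it were LINC01534 (0.991), LINC01275 (0.984), LINC02604 (0.959) and LINC02575 (0.958). The most counts fell on LINC02693, LINC00472 and LINC00702, at 102, 71.3 and 51.4 CPM. CPM is not corrected for transcript length, so the order of these values is not an order of transcript numbers.

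In the GENCODE 44 annotation of hg38, the build on which the reads had been mapped, 125 members were found by symbol and 11 under a newer name, and LINC02310 was not found there. Of the 136 found, 134 were typed as lncRNA. For 62 members some exonic bases also belonged to another annotated gene, and whether the counting had used the strand is not stated, so reads of such genes cannot always be told apart. A protein-coding gene body overlapped 24 of them, 25 lay within 5000 bp of one and 87 lay farther away.

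The 7 pairwise comparisons moved different shares of the members. In siNS cells, Dex took 2 members higher and 9 lower (adjusted p under 0.01, with a change of 1.5-fold or more), which was 8.03% of the members beside 2.71% of all genes tested, 1.65% higher and 1.06% lower. With the same rule, Dex took 2 higher and 3 lower in siHP1γ cells (3.65% of the members, 1.67% of all genes, 1.01% higher and 0.66% lower), and 7 higher and 11 lower in siPRMT5 cells (13.1% of the members, 5.44% of all genes, 2.69% higher and 2.75% lower). For the depletions an adjusted p under 0.05 was used with no limit on fold change. Depletion of HP1γ took 28 members higher and 10 lower in Eth (27.7% of the members, 31.8% of all genes, 16.5% higher and 15.2% lower), and 25 higher and 3 lower in Dex (20.4% of the members, 24% of all genes, 11.7% higher and 12.3% lower). Depletion of PRMT5 took 17 higher and 37 lower in Eth (39.4% of the members, 42.1% of all genes, 20.6% higher and 21.6% lower), and 17 higher and 29 lower in Dex (33.6% of the members, 42.4% of all genes, 20.6% higher and 21.9% lower). Without the 6 genes that the rule favoured, the counts were 26 higher and 9 lower with siHP1γ in Eth, 22 and 2 with siHP1γ in Dex, 15 and 36 with siPRMT5 in Eth and 15 and 28 with siPRMT5 in Dex.

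The direction was uneven in the depletions. With siHP1γ in Eth, 20.4% of the members were called higher and 7.3% lower, where 16.5% of all genes were called higher and 15.2% lower. With siHP1γ in Dex, 18.2% of the members were called higher and 2.19% lower, where 11.7% of all genes were called higher and 12.3% lower. The median log2 fold change over the members was 0.25 there and 0.15 with siHP1γ in Eth, and over all genes tested it was 0.0049 and 0.013. With siPRMT5 the members' median was -0.15 in Eth and -0.045 in Dex, beside 0.0005 and 0.0021 over all genes. With Dex in siNS cells it was -0.096, beside 0.0036. The median absolute log2 fold change of the members was 0.25 with Dex in siNS cells and 0.46 with siPRMT5 in Eth, beside 0.14 and 0.28 over all genes, and members and genes of equal level were not compared.

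**Figure D1:**
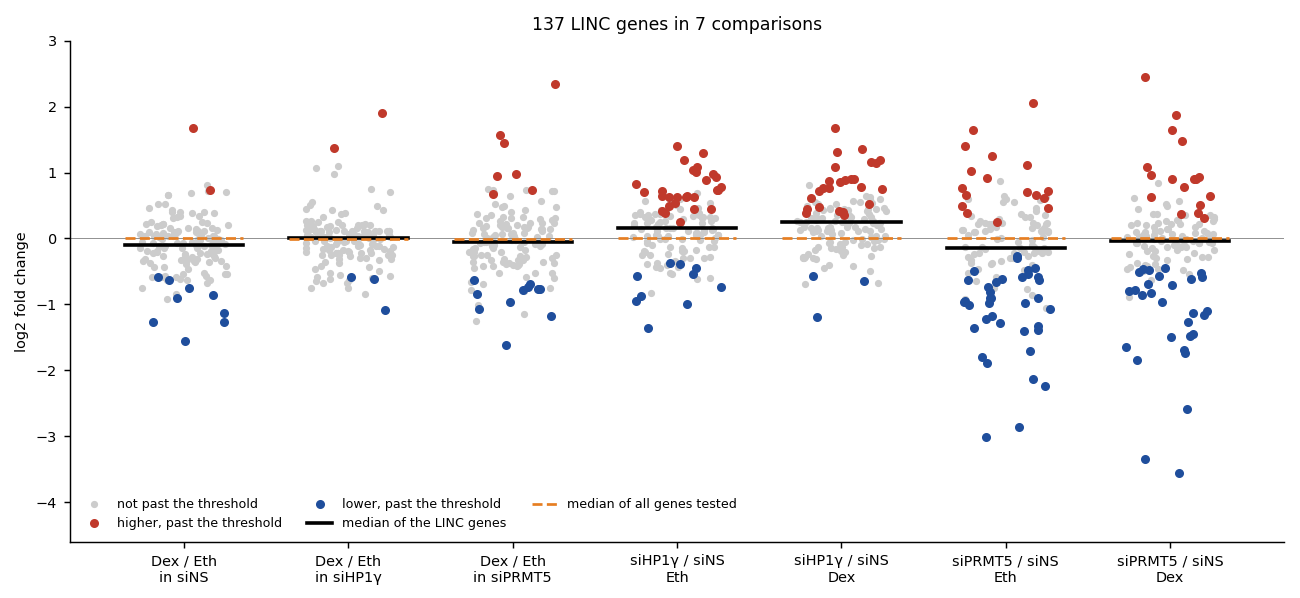
Log2 fold change (vertical axis) of each of the 137 LINC genes in the 7 comparisons named under the horizontal axis, with those past the threshold for the comparison in red (higher) or blue (lower), the others in grey, the members' median as a solid line and the median of all genes tested as a dashed line. The red points outnumber the blue ones in both siHP1γ comparisons (28 against 10 and 25 against 3). Without the genes that the rule favoured, the counts are 26 against 9 and 22 against 2. The lowest blue point, -3.56 with siPRMT5 in Dex, is LINC00707, 1 of the genes that the rule favoured.

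The first comparison asked which LINC genes responded to Dex in cells with both cofactors. The induced members were LINC00880 and LINC01833, and the 9 lowered ones were LINC02657, LINC01605, LINC01949, LINC01293, LINC01291, LINC01358, LINC02535, LINC01812 and LINC00601. The groups of 3 libraries did not overlap in any of the 11. Over all 137 members the groups did not overlap for 36, and over all genes tested for 27.9%. Of 17 well-known glucocorticoid targets tested in the same libraries, 12 passed the threshold and all 12 were higher, led by TSC22D3, ANGPTL4 and KLF9 at log2 fold changes of 3.64, 3.14 and 2.82.

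LINC00880, a gene of unknown function on chromosome 3, 157081667 to 157128595, had 0.773, 1.32 and 1.35 CPM in the siNS Eth libraries and 3.53, 4.68 and 3.08 in the siNS Dex libraries. Every Dex library was above every Eth library, and the log2 fold change was 1.68 (SE 0.30, adjusted p = 0.000267). LINC01833 lies 2503 bp from SIX3, a homeobox gene of forebrain and eye, and went from 9.82, 8.97 and 9.43 to 17.8, 13.8 and 15.1 CPM. The fold change was smaller, at 0.73 (SE 0.15, adjusted p = 0.00169), and again the lowest Dex library was above the highest Eth library.

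The largest fall was that of LINC02657, now called LASTR, a stress-induced RNA that associates with the splicing factor SART3. Its levels were 4.53, 5.91 and 4.66 CPM with Eth and 1.59, 1.31 and 2.18 with Dex, a log2 fold change of -1.55 (SE 0.24, adjusted p = 3.82e-05). The highest Dex library was at 2.18 CPM and the lowest Eth library at 4.53. LINC01605 on chromosome 8 went from 8.39, 8.26 and 6.84 CPM to 3.18, 3.38 and 3.17, with a log2 fold change of -1.27 (SE 0.16, adjusted p = 2.1e-06). LINC01949, on chromosome 5 near RASA1, a GTPase-activating protein of RAS, went from 3.64, 4.08 and 3.52 to 1.85, 1.31 and 1.45 CPM (log2 fold change -1.27, SE 0.28, adjusted p = 0.00299). In both genes the Dex libraries lay together below the Eth libraries.

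LINC01293 and LINC01291 are neighbours in the same orientation on chromosome 2, at 74940258 to 74942670 and at 74918148 to 74938418, upstream of POLE4, a subunit of DNA polymerase epsilon. LINC01293 had 11.5, 9.48 and 9.74 CPM with Eth and 4.24, 4.9 and 4.81 with Dex, a log2 fold change of -1.14 (SE 0.18, adjusted p = 6.92e-05). LINC01291 had 4.64, 4.08 and 4.66 CPM and 2.65, 2.18 and 2.27, a change of -0.90 (SE 0.22, adjusted p = 0.0076). Both members of the pair thus fell in every Dex library, LINC01291 by less. POLE4 itself had a log2 fold change of -0.13 (adjusted p = 0.484).

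LINC01358, a long locus of chromosome 1, went from 24, 21.3 and 21.2 CPM to 13.4, 11.2 and 12.1 (log2 fold change -0.85, SE 0.12, adjusted p = 1.86e-05). The log2 fold changes of the remaining lowered members were -0.76 (LINC02535), -0.63 (LINC01812) and -0.59 (LINC00601), with adjusted p-values of 0.000376, 0.00877 and 5.59e-05. LINC02535 had 13.4, 14 and 14.6 CPM with Eth and 7.07, 8.61 and 9.16 with Dex. LINC01812 had 11, 12.3 and 12.6 CPM and 6.8, 7.52 and 8.89, and LINC00601, 1 of the more precisely measured members, 25.6, 26.3 and 26.9 CPM and 16.9, 18.8 and 17. In each the Dex libraries lay below the Eth libraries. Of the 11 calls, 6 (LINC00880, LINC02657, LINC01605, LINC01293, LINC01358 and LINC02535) held whichever of the 18 libraries was left out, and the count fell to 7 without replicate 2 or replicate 3 of siNS Eth. LINC01291 also fell short with DESeq2, and LINC00601, at a fold change of 1.5, lay at the fold change limit.

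**Figure D2:**
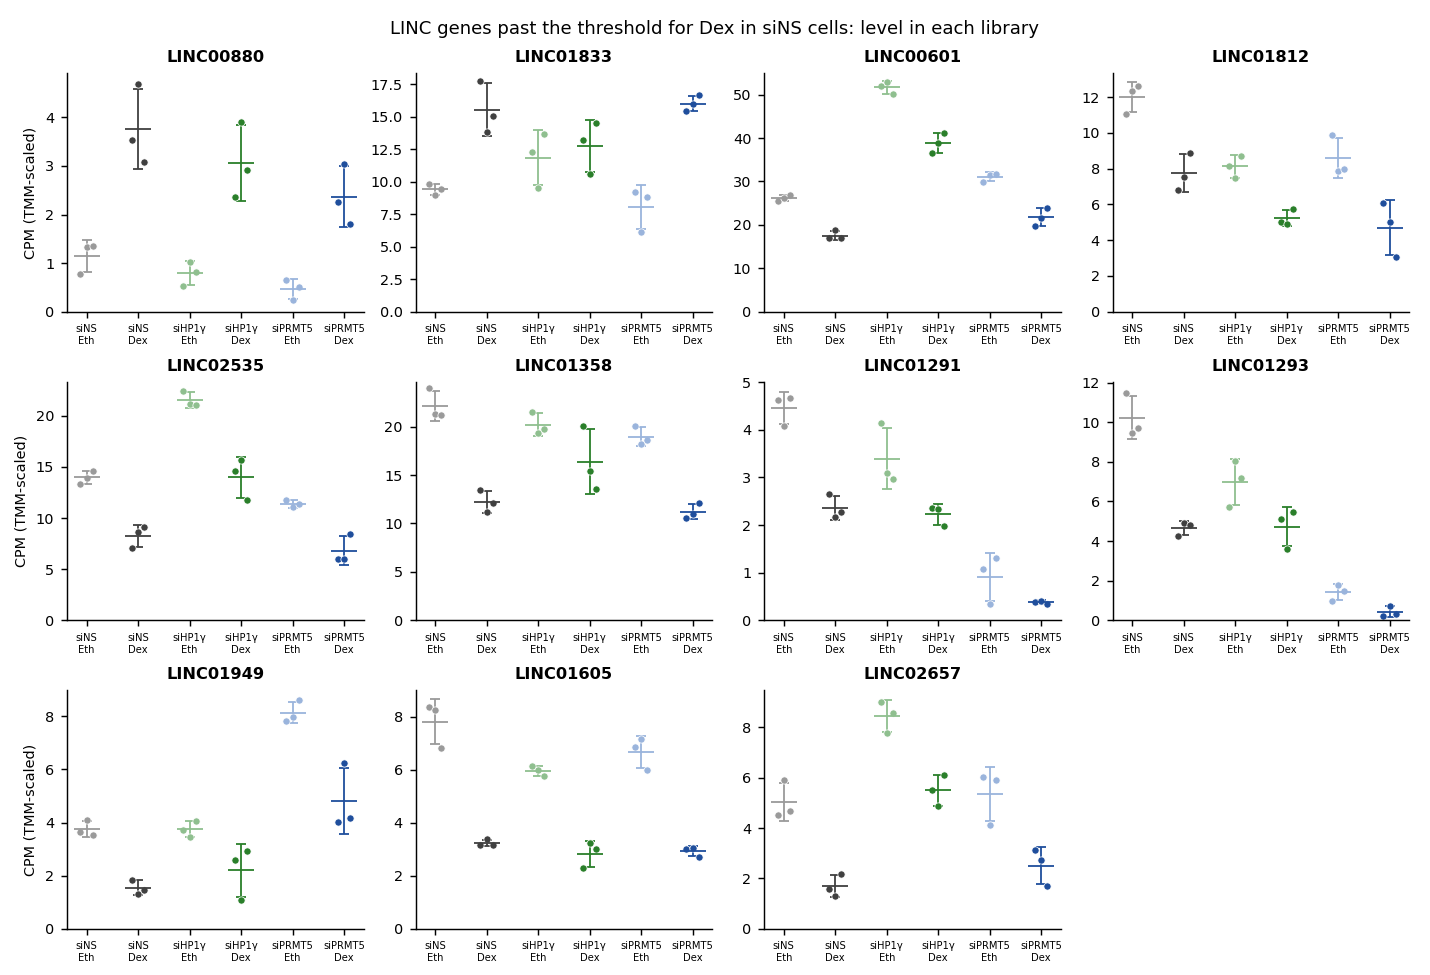
Level in CPM after TMM scaling (vertical axis, from 0, with its own range in each panel) of the 11 LINC genes past the threshold for Dex in siNS cells, in the 3 libraries of each of the 6 conditions (points), with the mean and SD (bars). LINC00880 and LINC01833 were higher and the other 9 lower in each siNS Dex library than in each siNS Eth library, and LINC01293 and LINC01291 were lowest in the siPRMT5 libraries.

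Since RefSeq lists a transcription start for many of these genes, the windows from 250 bases before to 50 after the start (build GRCh38.p14) were read for the letters of 6 motifs, on both strands. Windows were listed for 105 members, 14 of them with several, among 35116 windows in all. Of the 9 members lowered by Dex in siNS cells, 5 had a window, and in all 5 a window held the AP-1 letters TGANTCA, which 7.71% of all windows and 15 of the 105 members (14.3%) held. These 5 windows are shown because they belong to the members that fell with Dex, with the AP-1 letters in capitals on the gene's strand:

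LINC00601 chr10:126421830-126422129 minus strand: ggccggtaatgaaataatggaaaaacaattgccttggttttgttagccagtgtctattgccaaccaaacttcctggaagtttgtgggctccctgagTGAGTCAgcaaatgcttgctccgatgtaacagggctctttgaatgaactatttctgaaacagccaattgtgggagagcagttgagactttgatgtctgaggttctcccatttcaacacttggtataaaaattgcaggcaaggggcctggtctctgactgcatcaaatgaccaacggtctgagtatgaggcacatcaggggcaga

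LINC01358 chr1:59020226-59020525 plus strand: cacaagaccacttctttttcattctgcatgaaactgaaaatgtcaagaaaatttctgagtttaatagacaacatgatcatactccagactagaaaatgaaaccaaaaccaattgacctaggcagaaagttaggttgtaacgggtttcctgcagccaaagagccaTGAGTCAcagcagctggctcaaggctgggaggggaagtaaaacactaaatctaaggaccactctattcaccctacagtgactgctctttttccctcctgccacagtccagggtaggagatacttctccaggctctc

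LINC01812 chr2:67825513-67825812 minus strand: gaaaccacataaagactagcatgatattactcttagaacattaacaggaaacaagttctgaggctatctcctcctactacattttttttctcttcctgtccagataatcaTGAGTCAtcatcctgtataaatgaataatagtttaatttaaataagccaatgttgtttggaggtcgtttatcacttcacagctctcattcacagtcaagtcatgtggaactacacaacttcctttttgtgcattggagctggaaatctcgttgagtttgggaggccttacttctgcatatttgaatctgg

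LINC02535 chr6:85404753-85405052 minus strand: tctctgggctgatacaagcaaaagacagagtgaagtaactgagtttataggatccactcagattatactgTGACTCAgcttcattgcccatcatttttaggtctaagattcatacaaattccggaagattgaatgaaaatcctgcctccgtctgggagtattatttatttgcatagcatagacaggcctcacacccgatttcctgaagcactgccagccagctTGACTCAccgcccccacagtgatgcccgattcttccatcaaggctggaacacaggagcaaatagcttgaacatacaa

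LINC02657 chr10:5596069-5596368 minus strand: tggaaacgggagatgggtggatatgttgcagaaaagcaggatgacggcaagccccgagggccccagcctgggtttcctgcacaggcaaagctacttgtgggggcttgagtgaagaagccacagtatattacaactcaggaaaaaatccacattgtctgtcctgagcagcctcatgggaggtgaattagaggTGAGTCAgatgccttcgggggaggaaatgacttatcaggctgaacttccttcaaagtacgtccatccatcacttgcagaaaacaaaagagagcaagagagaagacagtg

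The match was TGAGTCA in LINC00601 (first base at -154 from the start), LINC01358 (-86), LINC01812 (-140) and LINC02657 (-59). LINC02535 has 2 windows, and the one shown held TGACTCA at -180 and at -27, while the other held no match. The starts that RefSeq gives for LINC01358 and LINC02657 lie inside the longer genes of GENCODE. LINC01833, the induced member with windows, held no AP-1 match in either of its 2. Among members with a window, the letters were also in 5 of the 8 lowered by Dex in siPRMT5 cells and 1 of the 2 in siHP1γ cells, in 7 of the 20 that were higher with siHP1γ in Dex and 5 of the 22 in Eth, and in 2 of the 21 lower with siPRMT5 in Dex and 3 of the 27 in Eth. The motif, like the other 5, was chosen after these members were known, so the match is a description of 5 windows.

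The other 5 motifs were counted in the same windows. The full GR element, GNACA and TGTNC with 3 bases between them, was in 0.39% of all windows and in none of the 105 members. Its half-site AGAACA, which can be part of the full element, was in 14.8% of all windows, in 18 of the 105 members and in 1 of the 5 lowered ones. The CRE, TGACG followed by TCA, was in 1.85% of all windows, 3 members and none of the 5, and the CRE-like letters, TGACG with any 2 bases and then A, which include the CRE, in 7.55%, 8 members and 1 of the 5. CCAAT was in 34.6% of all windows, in 42 of the 105 members and in 4 of the 5 lowered ones, and also in 9 of the 11 members with a window that were higher with siPRMT5 in Dex. No match says only that the letters are not in these windows.

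Dex was then compared with Eth within the depleted cells, which share no library with the siNS cells. In siHP1γ cells LINC00880 and LINC01843 were higher and LINC01605, LINC02535 and LINC02310 lower, and over all members the groups did not overlap for 33 (21.8% of all genes tested). LINC00880 went from 0.53, 1.03 and 0.811 CPM to 2.36, 3.91 and 2.91 (log2 fold change 1.90, SE 0.32, adjusted p = 0.000262), with every Dex library above every Eth library. LINC01605 went from 6.15, 5.99 and 5.76 to 2.28, 3.23 and 3.01 CPM (-1.08, SE 0.17, adjusted p = 8.03e-05), and LINC02535 from 22.5, 21.1 and 21.1 to 14.6, 15.6 and 11.8 CPM (-0.62, adjusted p = 0.00111), in both cases without overlap. LINC01843 rose from 1.06, 0.842 and 1.08 CPM to 3.07, 2.05 and 2.54, by 1.37 (adjusted p = 0.00624) on the log2 scale. LINC02310 fell from 17.5, 14.9 and 19 CPM to 9.13, 13.5 and 11.8 (-0.59, adjusted p = 0.00935), again with the groups apart. The count of 5 was thin: it fell to 3 without siHP1γ Eth replicate 1 or 3 or siHP1γ Dex replicate 1, and to 2 without siHP1γ Dex replicate 3, and 2 calls, LINC00880 and LINC01605, held whichever library was left out.

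In siPRMT5 cells 18 members passed the same threshold, and the groups did not overlap for 45 of the 137 members and for 28.7% of all genes. LINC00880 rose from 0.644, 0.235 and 0.50 CPM to 2.25, 3.04 and 1.81, the largest rise of a member with Dex in any of the 3 backgrounds, at 2.34 (SE 0.40, adjusted p = 8.05e-05) on the log2 scale. LINC01572, on chromosome 16, rose from 1.29, 1.06 and 0.90 to 2.93, 3.62 and 3.06 CPM (1.57, SE 0.30, adjusted p = 0.000432), and LINC00886 from 1.07, 0.704 and 0.60 to 2.35, 1.89 and 2.38 CPM (1.45, adjusted p = 0.00236). All Dex libraries of these 3 genes were above all Eth libraries. LINC01833 rose by 0.98 (adjusted p = 3.47e-05), from 9.23, 6.11 and 8.8 CPM to 15.4, 15.9 and 16.6, and SIX3 beside it by 1.30 (adjusted p = 0.00735). LINC00239 and LINC01003 rose by 0.95 and 0.74, from 2.36, 3.05 and 2.3 CPM to 6.65, 3.37 and 4.98 and from 5.26, 4.46 and 5.2 CPM to 8.11, 8.96 and 7.81. The Dex libraries stood above the Eth libraries in these 3 members too.

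The lowered members in siPRMT5 cells were led by LINC01293, from 0.966, 1.76 and 1.5 CPM to 0.196, 0.74 and 0.34 (log2 fold change -1.62, SE 0.43, adjusted p = 0.00938), although the call rested on levels of 0.196 to 1.76 CPM and was lost in 10 of the 18 fits that left out a library. LINC01605 fell from 6.87, 7.16 and 6.0 CPM to 3.03, 3.04 and 2.72 (-1.17, SE 0.17, adjusted p = 8.76e-06), and LINC02657 from 6.01, 4.11 and 5.9 to 3.13, 2.71 and 1.7 CPM (-1.07, SE 0.22, adjusted p = 0.000765). In all 3 genes no Dex library reached an Eth library. LINC02310, LINC01812 and LINC00857 had log2 fold changes of -0.96 (adjusted p = 0.0051), -0.84 (adjusted p = 0.00121) and -0.78 (adjusted p = 0.000375). LINC00857 had 12.8, 14 and 11.8 CPM with Eth and 6.06, 8.47 and 7.81 with Dex, and LINC02310 3.76, 4.93 and 4.3 and 2.35, 1.81 and 2.6. The Eth and Dex libraries of both were apart. The count of 18 fell to 11 without siPRMT5 Eth replicate 2, and 9 of the calls held whichever library was left out.

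The Dex effects of the members were also read across the backgrounds. All 11 members called in siNS cells had the same sign in siHP1γ cells and in siPRMT5 cells, as had 410 and 400 of the 414 genes called among all tested, and 3 and 9 of the 11 also passed the threshold there. LINC00880, LINC01605 and LINC02535 passed it in the 3 backgrounds. An equal sign does not mean an equal effect. LINC01833 had 0.73 in siNS cells but 0.11 (adjusted p = 0.77) in siHP1γ cells, where its Dex and Eth libraries overlapped. Its interaction with HP1γ depletion, -0.62 (adjusted p = 0.141), did not pass. Over the 137 members the log2 fold changes in siNS cells had a Pearson r of 0.65 with those in siHP1γ cells and with those in siPRMT5 cells, and over all genes tested 0.5 and 0.55. These are descriptions across genes, which are not independent. Over all genes, 46.9% of the Dex calls in siNS cells were called the same way in siHP1γ cells and 70.8% in siPRMT5 cells, beside 27.3% and 81.8% of the members' calls.

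Whether a depletion altered the Dex response was tested as an interaction. None of the 137 members passed for HP1γ, with 0.399% of all genes called at an adjusted p under 0.05, no member called by DESeq2 and 7 members at an unadjusted p under 0.05. For PRMT5 a single member passed, LINC00472, with 3.8% of all genes called, 1.58% with a higher Dex effect, and 16 members at an unadjusted p under 0.05. The shares of all genes are those at the adjusted p. The counts of 7 and 16 have no such share beside them and are not a result about the members. LINC00472 is an RNA that has been studied as a tumour suppressor in breast cancer, and its exons overlap OGFRL1 and MIR30C2. Its levels in siNS cells were 68, 58.8 and 61.2 CPM with Eth and 66.1, 65.6 and 61.3 with Dex, and in siPRMT5 cells 56.6, 67.6 and 64.2 and 90.4, 109 and 99.6 CPM. The siPRMT5 Dex libraries were above the other 15, the nearest of which was a siHP1γ Dex library at 86.2 CPM. The Dex effect was 0.038 (adjusted p = 0.888) on the log2 scale in siNS cells and 0.67 (adjusted p = 5.82e-05) in siPRMT5 cells, and their difference was 0.63 (SE 0.16, adjusted p = 0.0212). This call was lost without siNS Eth replicate 1, siNS Dex replicate 3, siPRMT5 Eth replicate 1 or siPRMT5 Dex replicate 2, and without siHP1γ Dex replicate 1 the count was 3.

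The next comparisons asked which LINC genes responded to loss of HP1γ. Most of the members that passed the test were higher in the depleted cells, in Eth and in Dex. The rises were led by LINC00239 and LINC01303 in Eth and by LINC02657 and LINC01303 in Dex. The groups did not overlap for 60 members in Eth and for 46 in Dex, beside 45.5% and 36.9% of all genes.

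LINC00601, on chromosome 10 beside C10orf90, rose in both treatments. In Eth it had 52, 52.9 and 50.1 CPM in siHP1γ cells against 25.6, 26.3 and 26.9 in siNS cells, and in Dex 36.5, 38.8 and 41.2 against 16.9, 18.8 and 17. The log2 fold changes were 0.97 (SE 0.084, adjusted p = 2.56e-09) and 1.15 (SE 0.088, adjusted p = 4.14e-10), and the lowest depleted library was above the highest siNS library each time. LINC01303, on chromosome 14, rose from 1.21, 1.22 and 1.14 CPM to 3.5, 2.71 and 2.7 in Eth and from 1.77, 0.981 and 0.816 to 3.31, 3.91 and 2.07 in Dex, by 1.30 (SE 0.33, adjusted p = 0.00371) and 1.36 (SE 0.32, adjusted p = 0.00241). Its depleted libraries, at 2.07 CPM or more, again stood above the siNS libraries.

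LINC02657, lowered by Dex in siNS cells, was higher in siHP1γ cells, at 9.01, 7.76 and 8.56 CPM in Eth and 5.51, 4.89 and 6.11 in Dex, with log2 fold changes of 0.74 (SE 0.18, adjusted p = 0.00244) and 1.68 (SE 0.23, adjusted p = 4.61e-06) against siNS. The siHP1γ Dex libraries overlapped the siNS Eth libraries. The comparison of siHP1γ with siNS in Dex shares the siNS Dex libraries with the Dex effect in siNS cells. LINC02535 had the same pattern, at 22.5, 21.1 and 21.1 CPM in Eth and 14.6, 15.6 and 11.8 in Dex, with changes of 0.62 (adjusted p = 0.000314) and 0.76 (adjusted p = 0.000156). LINC00886 rose to 4.35, 3.09 and 4.05 CPM in Eth from 1.66, 1.32 and 2.59, and to 5.51, 7.14 and 6.67 in Dex from 3.44, 2.72 and 2.81, by 1.03 (adjusted p = 0.00201) and 1.09 (adjusted p = 0.000204). In these 3 genes the depleted and the siNS libraries of the same treatment did not overlap.

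LINC00239 rose in Eth from 0.883, 0.917 and 0.621 CPM to 2.01, 2.81 and 1.62, by 1.40 (SE 0.37, adjusted p = 0.00475), the largest change of a member with siHP1γ in Eth, and by 0.85 (adjusted p = 0.0466) in Dex. LINC01968 and LINC02021 passed the rule through their siHP1γ libraries, and had log2 fold changes of 1.19 and 1.09 in Eth and 1.19 and 1.32 in Dex. LINC01968 had 2.01, 1.12 and 1.53 CPM in the siHP1γ Eth and 1.5, 1.27 and 2.26 in the siHP1γ Dex libraries, against 0.773, 0.408 and 0.829 and 1.06, 0.218 and 0.816 in siNS. LINC02021 had 1.59, 1.78 and 2.43 CPM and 1.57, 1.27 and 1.69, against 1.21, 1.22 and 0.311 and 0.883, 0.545 and 0.363. Their siNS and siHP1γ groups were apart, but the calls of both genes were lost in both treatments when single siNS or siHP1γ libraries were left out. LINC00174, whose exons overlap pseudogenes, rose in Eth from 0.994, 0.815 and 1.55 CPM to 2.76, 2.06 and 2.07 (1.01, adjusted p = 0.00898).

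Few members fell with siHP1γ. LINC00707, on chromosome 10, 6779549 to 6842906, passed the rule through its siNS libraries. It had 1.21, 2.34 and 1.86 CPM in siNS Eth and 0.848, 0.561 and 0.721 in siHP1γ Eth, and 2.65, 1.96 and 2.54 and 1.26, 1.08 and 0.752 with Dex. The falls were -1.35 (SE 0.34, adjusted p = 0.00373) and -1.20 (SE 0.29, adjusted p = 0.00337) on the log2 scale, and the groups did not overlap. They are a description, since the rule favoured a fall from siNS, and leaving out single libraries does not test that. LINC01812 fell to 8.16, 7.48 and 8.74 CPM in Eth and 5.04, 4.89 and 5.73 in Dex, with changes of -0.56 (adjusted p = 0.00716) and -0.57 (adjusted p = 0.0186). In Dex LINC01537 fell from 5.92, 6.97 and 6.8 CPM to 3.94, 4.5 and 4.14 (-0.65, adjusted p = 0.00205).

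In Eth the other leading falls were those of LINC01638, LINC02742 and LINC02582. LINC01638, studied in triple-negative breast cancer, fell from 3.86, 2.04 and 2.8 CPM to 1.7, 1.31 and 1.35 (-0.99, SE 0.28, adjusted p = 0.00789). LINC02742 fell from 3.75, 3.47 and 5.08 CPM to 1.48, 3.18 and 1.62 (-0.95, SE 0.26, adjusted p = 0.00604) and LINC02582 from 10.8, 7.64 and 7.15 to 3.71, 4.49 and 5.67 (-0.87, SE 0.20, adjusted p = 0.00136). The groups were apart in the 3 genes, but LINC01638 lost its call without siNS Eth replicate 1. The count of 38 called in Eth fell to 25 without siHP1γ Eth replicate 3, and the 28 in Dex stayed at 20 or more. In a fit without TMM scaling the 28 became 40, of which 37 were higher, while the median of all genes moved to 0.086.

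With PRMT5 depleted, most of the members that passed the test were lower. In Eth 27% of the members were called lower and 12.4% higher, beside 21.6% and 20.6% of all genes. In Dex 21.2% were called lower and 12.4% higher, beside 21.9% and 20.6% of all genes. The share called lower in Dex was thus near that of all genes, and the share called higher was smaller. Leaving aside the genes that the rule favoured, the falls with siPRMT5 were led by LINC01293 and LINC01291 in Eth and in Dex, and the rises by LINC00239. The groups did not overlap for 65 members in Eth and for 57 in Dex, beside 49.1% and 51.5% of all genes.

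LINC00707, which passed the rule through its siNS libraries, had 0.215, 0.117 and 0.30 CPM in siPRMT5 Eth and 0.196, 0.0822 and 0.34 in siPRMT5 Dex, each value resting on 1 to 3 counts, against 1.21, 2.34 and 1.86 and 2.65, 1.96 and 2.54 in siNS. Its log2 fold changes were -3.01 (SE 0.46, adjusted p = 7.81e-06) and -3.56 (SE 0.42, adjusted p = 1.9e-07). LINC01293 had 0.966, 1.76 and 1.5 CPM in Eth against 11.5, 9.48 and 9.74, and 0.196, 0.74 and 0.34 in Dex against 4.24, 4.9 and 4.81. Its changes were -2.85 (SE 0.23, adjusted p = 3.07e-10) and -3.34 (SE 0.33, adjusted p = 7.89e-09). LINC01291 beside it had 1.07, 0.352 and 1.3 CPM in Eth and 0.391, 0.411 and 0.34 in Dex, with changes of -2.24 (SE 0.27, adjusted p = 2.77e-07) and -2.59 (SE 0.36, adjusted p = 1.94e-06). The siPRMT5 libraries of these 3 genes lay below every siNS library of the same treatment, and the calls of LINC01293 and LINC01291 held whichever library was left out. The values of LINC00707 are a description, since the rule favoured its fall. POLE4, the coding gene nearest to the pair, fell as well, with changes of -1.27 (adjusted p = 4.21e-10) in Eth and -1.38 (adjusted p = 1.03e-10) in Dex.

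LINC02582, on chromosome 18, 73324941 to 73349879, fell from 10.8, 7.64 and 7.15 CPM to 2.25, 1.53 and 3.0 in Eth and from 6.27, 5.45 and 7.8 to 2.54, 1.89 and 1.81 in Dex, with changes of -1.89 (SE 0.23, adjusted p = 2.77e-07) and -1.65 (SE 0.23, adjusted p = 3.17e-06). LINC02228 fell from 5.19, 3.67 and 5.08 CPM to 0.751, 1.29 and 1.1 in Eth (-2.14, SE 0.33, adjusted p = 1.03e-05), and its change in Dex was -1.50 (adjusted p = 0.000497). Every siPRMT5 library of both was below its siNS group. LINC00518, 9596 bp from TFAP2A, the gene of transcription factor AP-2α, fell in Eth from 2.87, 3.77 and 3.11 CPM to 1.07, 0.587 and 1.1 (-1.79, SE 0.33, adjusted p = 7.96e-05), and TFAP2A had a change of -0.30 (adjusted p = 0.109). LINC02057 had changes of -1.71 (adjusted p = 4.91e-05) in Eth and -1.69 (adjusted p = 0.000105) in Dex, where it went from 2.56, 2.61 and 2.36 CPM to 0.978, 0.658 and 0.679. LINC00862 was among the leading falls in Dex, from 2.03, 2.94 and 2.09 CPM to 0.489, 0.822 and 0.566 (-1.84, SE 0.31, adjusted p = 3.18e-05), with -0.76 (adjusted p = 0.0725) in Eth. The groups were again apart, with less than 1 CPM in each siPRMT5 Dex library.

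LINC00211, now called PIRAT1, is an RNA described in myeloid cells and passed the rule through its siPRMT5 libraries. It had 0.662, 0.204 and 0.621 CPM in siNS Eth and 1.93, 1.76 and 2.5 in siPRMT5 Eth, and 0.53, 0.436 and 0.272 and 2.83, 2.14 and 1.92 with Dex, with log2 fold changes of 2.06 (SE 0.37, adjusted p = 7.36e-05) and 2.45 (SE 0.36, adjusted p = 5.33e-06). LINC00239 rose to 2.36, 3.05 and 2.3 CPM in Eth, by 1.65 (SE 0.36, adjusted p = 0.000594), and to 6.65, 3.37 and 4.98 in Dex, by 1.88 (SE 0.28, adjusted p = 4.64e-06). LINC00342 rose from 1.88, 2.24 and 2.28 CPM to 4.51, 6.93 and 5.6 in Eth and from 1.59, 2.4 and 2.99 to 4.5, 6.0 and 4.07 in Dex, by 1.40 (SE 0.26, adjusted p = 0.00011) and 1.08 (SE 0.25, adjusted p = 0.00116). None of these groups overlapped with its siNS group, and the calls of LINC00239 and LINC00342 held whichever library was left out. The values of LINC00211 are a description, since the rule favoured its rise.

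Other rises with siPRMT5 were smaller or less firm. LINC01949, lowered by Dex in siNS cells, had 7.83, 7.98 and 8.6 CPM in siPRMT5 Eth and 4.01, 6.25 and 4.19 in siPRMT5 Dex, higher than siNS by 1.12 (adjusted p = 0.000108) and 1.65 (adjusted p = 1.26e-05). LINC00240, which passed the rule through its siPRMT5 libraries, went in Dex from 0.618, 0.872 and 1.09 CPM to 3.71, 1.64 and 1.92 (1.48, adjusted p = 0.00322), while in Eth, at 1.26 (adjusted p = 0.0402), the groups overlapped. LINC00920 rose from 0.883, 1.53 and 1.24 CPM to 2.79, 1.88 and 2.8 in Eth and from 1.24, 0.981 and 0.907 to 1.76, 1.97 and 2.49 in Dex, by 1.03 (adjusted p = 0.0106) and 0.97 (adjusted p = 0.0187), calls that single libraries could end. LINC00174 rose to 2.15, 2.0 and 2.2 CPM in Eth (0.91, adjusted p = 0.0167).

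**Figure D3:**
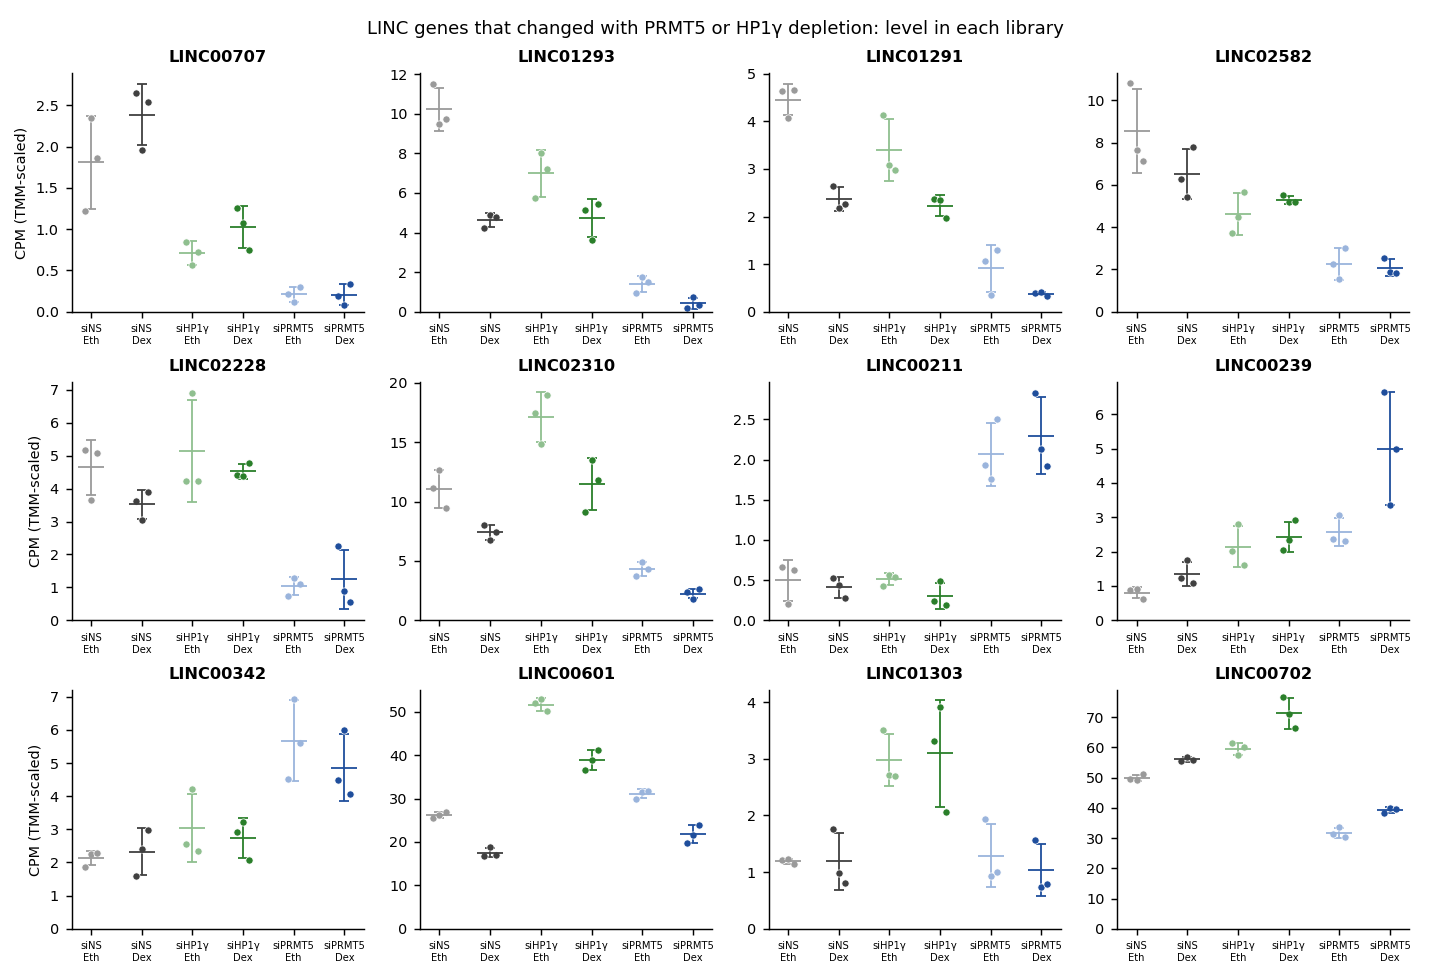
Level in CPM after TMM scaling (vertical axis, from 0, with its own range in each panel) of 12 LINC genes in the 3 libraries of each of the 6 conditions (points), with the mean and SD (bars). LINC00707, LINC01293 and LINC01291 stay at or under 1.76 CPM in every siPRMT5 library. LINC00211 reaches at least 1.76 CPM in each siPRMT5 library and at most 0.662 CPM in the others. LINC00601 and LINC01303 are highest in the siHP1γ libraries. The rule favoured the fall of LINC00707 and the rise of LINC00211.

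The Eth and Dex comparisons of each depletion share no library, so their calls can be compared. For PRMT5, 35 members were called in both and in the same direction, 11 higher and 24 lower, which was 64.8% of the 54 called in Eth and 76.1% of the 46 called in Dex. No member was called in opposite directions, all 46 called in Dex had the same sign in Eth, and 49 of the 54 called in Eth had the same sign in Dex. Over all genes these shares were 92.2% and 92.6%. Over all genes tested, 66.6% of the Eth calls and 66.2% of the Dex calls were shared in the same direction. For HP1γ, 19 members were called in both, 17 higher and 2 lower (LINC00707 and LINC01812), which was 50% of the Eth calls and 67.9% of the Dex calls, beside 47.3% and 62.6% over all genes. The log2 fold changes of the 137 members had a Pearson r of 0.86 between Eth and Dex for PRMT5 and 0.69 for HP1γ, a description across genes, beside 0.75 and 0.66 over all genes. The members called in both include LINC00211, LINC00240 and LINC00707 for PRMT5 and LINC00707, LINC01968 and LINC02021 for HP1γ. The rule favoured a change of these genes in Eth and Dex alike, and the shares and r include them.

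**Figure D4:**
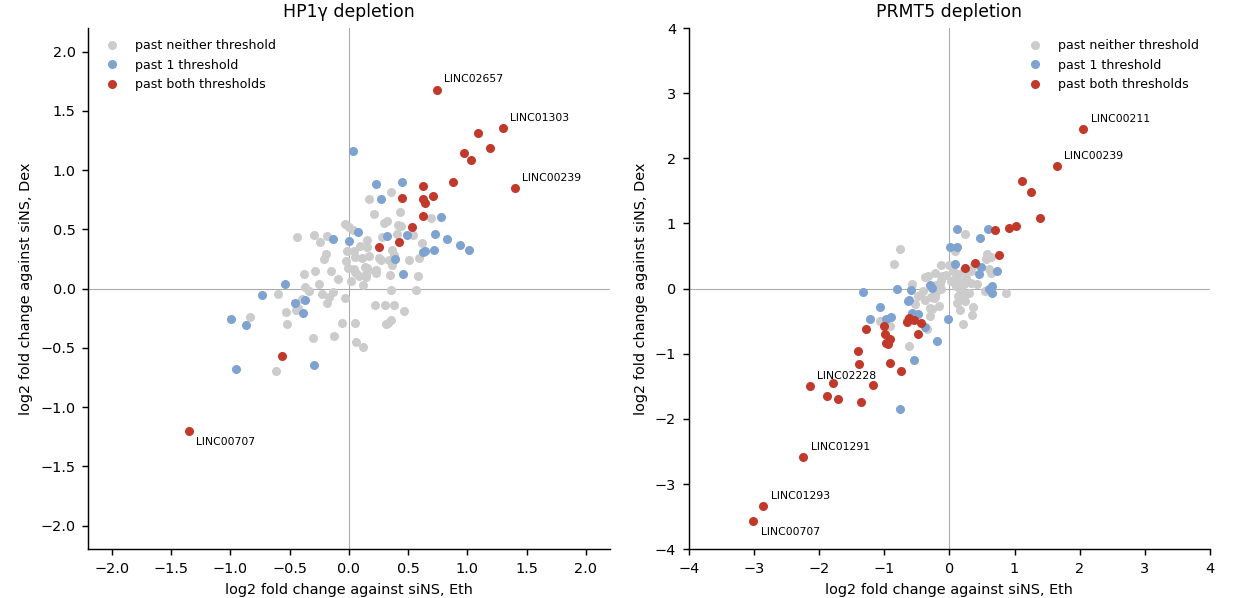
Log2 fold change of the 137 LINC genes against siNS with Eth (horizontal axis) and with Dex (vertical axis), for HP1γ depletion (left) and PRMT5 depletion (right), with the genes past both thresholds in red, past 1 in blue and past neither in grey. The 19 red genes on the left and the 35 on the right all lie in the quadrants of equal sign, and both sets include genes whose change the rule favoured.

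Several members were called in both depletions, with equal or with opposite signs. Both depletions were compared with the same siNS libraries within a treatment, so the values are given side by side and the difference between the depletions was not tested. LINC00707, whose fall the rule favoured, was lower with each, at -1.35 with siHP1γ and -3.01 with siPRMT5 in Eth. LINC00239 was higher with each, by 1.40 and 1.65. LINC00601 was also called higher with each depletion in both treatments. With siPRMT5 its mean was 31.1 CPM in Eth and 21.8 in Dex, against 26.3 and 17.6 in siNS. LINC02310 was higher with siHP1γ, by 0.63 (adjusted p = 0.00145) in Eth and 0.62 (adjusted p = 0.00498) in Dex, and lower with siPRMT5, at -1.36 (adjusted p = 1.04e-06) and -1.74 (adjusted p = 2.54e-07). Its siNS, siHP1γ and siPRMT5 libraries with Eth held 11.1, 12.6 and 9.43 CPM, 17.5, 14.9 and 19 and 3.76, 4.93 and 4.3, and with Dex 8.04, 6.75 and 7.44, 9.13, 13.5 and 11.8 and 2.35, 1.81 and 2.6, which put the 3 backgrounds in separate ranges within each treatment. LINC00702, 1 of the 3 members with the most counts, had 49.5, 49.2 and 51.1 CPM, 61.3, 57.4 and 60 and 31.2, 33.6 and 30.4 with Eth, in the same order. Its changes in Eth were 0.25 (SE 0.073, adjusted p = 0.00893) with siHP1γ and -0.65 (SE 0.077, adjusted p = 1.64e-07) with siPRMT5, and in Dex 0.35 and -0.51.

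LINC01278 on the X chromosome, picked after its values were seen, followed the same order. It had 26.9, 25.4 and 21.3 CPM in siNS Eth, 36.9, 31.7 and 30.2 in siHP1γ Eth and 12, 13.3 and 13 in siPRMT5 Eth, with changes of 0.42 (adjusted p = 0.00238) and -0.94 (adjusted p = 2.77e-07). The gene body of LINC01278 overlaps that of SPIN4, which had log2 fold changes of -0.18 (adjusted p = 0.231) and 0.32 (adjusted p = 0.0219) in the same comparisons. LINC00886 was higher with siHP1γ in Eth (1.03) and lower with siPRMT5 (-1.22, adjusted p = 0.00592). When comparisons without a common library were set beside each other, siHP1γ in Dex and siPRMT5 in Eth, 16 members were called in both, 5 in the same and 11 in opposite directions. For siHP1γ in Eth and siPRMT5 in Dex, 19 were called in both, 9 in the same and 10 in opposite directions. LINC00707, whose fall the rule favoured, is among the calls in the same direction in both pairings. Over all genes tested the same pairings gave 1143 and 1225 calls in the same and 787 and 1265 in opposite directions.

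The protein-coding gene nearest to each called member was looked up in the same fit. With Dex in siNS cells none of the 10 tested neighbours of called members passed the threshold, although RASA1 beside LINC01949 had a change of -0.55 (adjusted p = 9.17e-06), under the fold change limit. SIX3 beside LINC01833 had 0.65 (adjusted p = 0.173) and CCNL1, a cyclin of splicing, beside LINC00880 0.059 (adjusted p = 0.697). In siPRMT5 cells 2 of 16 neighbours passed with Dex, RASA1 and SIX3, both in the member's direction, and in siHP1γ cells none of 4. For siPRMT5 against siNS, 19 of 40 neighbours passed in Eth, 9 in the direction of the member and 10 in the other, and 23 of 36 in Dex, 11 and 12. For siHP1γ, 13 of 27 passed in Eth, 7 and 6, and 5 of 20 in Dex, 2 and 3. LINC01293 and LINC01291 share POLE4 and are counted separately. Of all 11671 coding genes tested, 3.08%, 1.91% and 6.21% passed for Dex in siNS, siHP1γ and siPRMT5 cells, under the stricter threshold for Dex. For siPRMT5, 47.6% passed in Eth and 48.4% in Dex, beside 47.5% and 63.9% of the neighbours, and for siHP1γ 36.2% and 26.8%, beside 48.1% and 25%.

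The values of the neighbours of the leading members follow. With Dex in siNS cells the log2 fold changes were 0.078 for ASB13 beside LINC02657, -0.036 for ZNF703 beside LINC01605 and -0.61 for FGGY beside LINC01358, none past the test. With Dex in siHP1γ cells they were 0.13 for CCNL1, 0.35 for JADE2 beside LINC01843, -0.46 for ZNF703 and -0.034 for NT5E beside LINC02535, again none past it. With Dex in siPRMT5 cells, CCNL1 beside LINC00880 had 0.27, PMFBP1 beside LINC01572 -0.056, PPP2R5C beside LINC00239 0.097 and KMT2C beside LINC01003 0.006. POLE4 beside LINC01293 had -0.23 there, ZNF703 beside LINC01605 -0.47, ASB13 beside LINC02657 0.38, C1D beside LINC01812 0.25 and ANXA11 beside LINC00857 -0.28, none past the threshold. The coding genes beside LINC00601, LINC00707, LINC00886, LINC00920, LINC01303, LINC02021, LINC02228 and LINC02582 did not pass the filter or had no counts under their name, and LINC02310 had no position.

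With siHP1γ in Eth, FAM43A beside LINC01968 rose by 0.67, METTL15 beside LINC02742 and C1D beside LINC01812 had -0.59 and -0.70, and POLE4 beside LINC01293 -0.31, all past the test and in the direction of the member. PPP2R5C beside LINC00239, TPST1 beside LINC00174 and MN1 beside LINC01638 had 0.054, 0.20 and 0.21 and did not pass. With siHP1γ in Dex, PDE2A beside LINC01537 fell with it (-0.39), while ASB13 beside LINC02657, FAM43A beside LINC01968 and C1D beside LINC01812, at 0.030, 0.38 and -0.061, did not pass. With siPRMT5, RMDN2 beside LINC00211 rose by 0.71 in Eth and 0.54 in Dex, and PPP2R5C beside LINC00239, a subunit of protein phosphatase 2A, by 0.41 and 0.57. In Dex the histone gene H2BC11 beside LINC00240 had -0.97, against a rise of the member, ZSWIM6 beside LINC02057 -0.20 and RASA1 beside LINC01949 -0.41, all past the test. ANKRD36C beside LINC00342 had 0.013 in Eth and 0.12 in Dex, RASA1 -0.14 in Eth and TPST1 beside LINC00174 0.083 in Eth, none past the test.

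Further pairs were chosen after their values were seen. JUN, the AP-1 subunit, is the coding gene nearest to LINC02777, 98820 bp away. With Dex in siNS cells JUN had a log2 fold change of -1.30 (adjusted p = 5.96e-12), and LINC02777, which was not called, -0.75 (adjusted p = 0.0788). With siPRMT5 in Dex the values were -0.29 (adjusted p = 0.0062) for JUN and -1.16 (adjusted p = 0.00765) for LINC02777. PDE2A, a phosphodiesterase, lies 2912 bp from LINC01537 and had a change of -0.82 (adjusted p = 1.19e-07) with siPRMT5 in Dex, where LINC01537 rose by 0.51 (adjusted p = 0.00255). ZNF281, a zinc finger gene 4235 bp from LINC00862, changed by 0.33 (adjusted p = 0.000505) where LINC00862 had -1.84. LINC01578, now called CHASERR, is known to restrain the chromatin remodeller gene CHD2 beside it. LINC01578 fell in Eth with siHP1γ (-0.45, adjusted p = 0.0286) and with siPRMT5 (-0.63, adjusted p = 0.00251), and CHD2 rose by 0.33 (adjusted p = 0.000737) and 0.55 (adjusted p = 5.27e-07). In Dex the changes of LINC01578 were -0.12 (adjusted p = 0.612) and -0.19 (adjusted p = 0.35), and those of CHD2 0.036 (adjusted p = 0.76) and 0.17 (adjusted p = 0.0496). The exons of LINC01578 and CHD2 overlap in GENCODE, and the siHP1γ and siNS libraries of LINC01578 overlapped in Eth, at 17.8, 22.4 and 26.4 CPM and 33.9, 25.6 and 32.2.

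Some members lie against each other, and these pairs too were picked with their values in view. LINC01356 and LINC01357 share exonic bases on opposite strands of chromosome 1 and both were lower with siPRMT5, at -0.98 (adjusted p = 0.00103) and -0.63 (adjusted p = 0.0022) in Eth and at -0.70 (adjusted p = 0.00902) and -0.45 (adjusted p = 0.0163) in Dex. LINC02228 shares exonic bases with LINC02211, which did not pass the test in Eth (-0.16, adjusted p = 0.731) while LINC02228 fell. LINC01116 shares them with LINC01117 and LINC00667 with LINC00526. LINC01116 fell with siPRMT5 in Eth (-0.29, adjusted p = 0.0237) and LINC01117 had -0.20 (adjusted p = 0.631). LINC00667 was lower with siHP1γ in Eth, -0.37 (adjusted p = 0.0116), and higher with siPRMT5 in Dex, 0.37 (adjusted p = 0.0051), and LINC00526 had 0.15 (adjusted p = 0.82) and -0.54 (adjusted p = 0.333).

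LINC RNAs that are often studied in cancer were held in a list of 21, of which 14 were tested. With Dex in siNS cells none passed. With siHP1γ, 3 were higher and 3 lower in Eth and 2 higher and 1 lower in Dex, and with siPRMT5, 2 were higher and 4 lower in Eth and 3 higher and 2 lower in Dex. The shares called, 42.9% and 21.4% with siHP1γ and 42.9% and 35.7% with siPRMT5 in Eth and Dex, stand beside 31.8%, 24%, 42.1% and 42.4% of all genes. LINC00662 had 25.2, 24.2 and 28.1 CPM in siNS Eth and 13.4, 11.4 and 13.6 in siPRMT5 Eth, a change of -1.01 (SE 0.10, adjusted p = 1.96e-08). All siPRMT5 libraries of LINC00662 lay below all siNS libraries, in Dex too (-0.57, adjusted p = 3.36e-05), while in siHP1γ Dex, at 40.8, 34.1 and 35.3 against 27.3, 25.5 and 26.6 CPM, it was higher (0.47, adjusted p = 0.000315). LINC00324 rose with siPRMT5 by 0.70 (adjusted p = 0.0272) in Eth and 0.90 (adjusted p = 0.0054) in Dex, and LINC00205 by 0.65 (adjusted p = 0.00177) in Eth. LINC00511 and LINC00847 rose with siHP1γ in Eth by 0.49 (adjusted p = 0.0312) and 0.39 (adjusted p = 0.0109). LINC00467 and LINC00963, at 15 to 20.8 and 10.5 to 17.9 CPM over the 18 libraries, passed no test.

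The counts of the 137 members were also added up in each library. Their sum was 0.101% to 0.106% of the library total in siNS Eth, 0.0934% to 0.0965% in siNS Dex, 0.119% to 0.12% in siHP1γ Eth, 0.114% to 0.124% in siHP1γ Dex, 0.0883% to 0.0937% in siPRMT5 Eth and 0.092% to 0.0952% in siPRMT5 Dex. All 6 siHP1γ libraries were above the other 12. The siNS Eth libraries were above the siNS Dex and the siPRMT5 libraries, and the last 3 groups overlapped. Without the 3 members with the most counts the siHP1γ libraries held 0.0901% to 0.0967% and the others at most 0.0839%, and without LINC00601 at least 0.109% and the others at most 0.103%. Both alternatives were chosen after the data were seen.

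**Figure D5:**
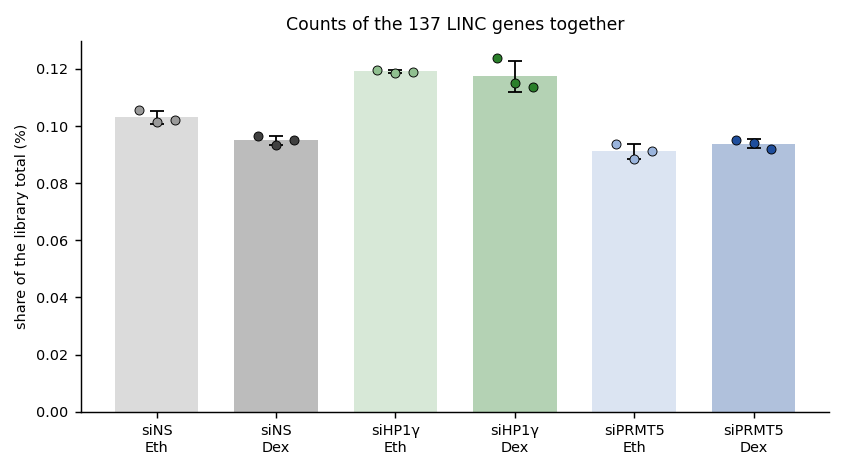
Counts of the 137 LINC genes together as a percentage of the library total (vertical axis, from 0) in the 3 libraries of each condition (points), with the mean (columns) and SD (bars). The siHP1γ libraries, at 0.114% to 0.124%, lie above the other 12.

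Other RNAs were counted beside the members. The 439 other lncRNA genes of GENCODE that were tested, a group formed after the data were seen, had 65 higher and 26 lower with siHP1γ in Dex, 52 and 32 with siHP1γ in Eth, 32 and 117 with siPRMT5 in Eth, 47 and 87 with siPRMT5 in Dex, and 3 and 9 with Dex in siNS cells. In this order that was 20.7%, 19.1%, 33.9%, 30.5% and 2.73% of the 439, beside 24%, 31.8%, 42.1%, 42.4% and 2.71% of all genes. With Dex in siNS cells their share was thus near that of all genes, where 8.03% of the members were called. The 11671 protein-coding genes had 1551 higher and 1581 lower with siHP1γ in Dex, and 2832 and 2724 with siPRMT5 in Eth, which was 26.8% and 47.6% of them. The median log2 fold change with siHP1γ in Dex was 0.15 over the other lncRNA genes and 0.010 over the coding genes, and with siPRMT5 in Eth -0.23 and 0.017. Beside 31.8% and 42.1% of all genes called with siHP1γ and siPRMT5 in Eth, of 19 hosts of small nucleolar RNAs tested, 9 were lower with siHP1γ and 10 with siPRMT5 in Eth and none higher, among them SNHG6 (-1.32 with siHP1γ) and SNHG16 (-1.21 with siPRMT5). In Dex they were 8 lower and none higher with siHP1γ and 6 lower and 2 higher with siPRMT5. That was 42.1% of the 19 each time, beside 24% and 42.4% of all genes. GAS5, a host whose RNA binds GR, was lower with siHP1γ in Eth (-0.64 on the log2 scale) and higher with Dex in siPRMT5 cells by 0.66.

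Among 14 tested of 26 well-known lncRNAs with other names, UCA1 had log2 fold changes of 0.76 with Dex in siNS cells, -1.41 with siHP1γ and -1.67 with siPRMT5 in Eth, and LUCAT1 -0.96 with Dex in siNS cells and -0.77 with siPRMT5 in Eth. Of these 14, 1 was higher and 1 lower with Dex in siNS cells (14.3%, beside 2.71% of all genes). With siPRMT5 in Eth, 1 was higher and 6 lower (50%, beside 42.1% of all genes). Of 6 genes that formerly bore LINC symbols, 1 was higher with siHP1γ and 3 were lower with siPRMT5 in Eth. That was 16.7% and 50%, beside 31.8% and 42.1% of all genes. NORAD was higher with siHP1γ in Eth by 0.18 and lower with siPRMT5 in Eth (-0.32). Of 18 genes of the nuclear RNA exosome and its adaptors, 7 were higher and 1 lower with siPRMT5 in Dex, 3 and 4 with siPRMT5 in Eth, 2 and 1 with siHP1γ in Dex and 1 and 3 with siHP1γ in Eth. ZCCHC8, a subunit of the NEXT adaptor, was higher by 0.37 to 0.48 in the 4 comparisons with siNS. Of 13 tested subunits of Integrator, which cleaves nascent noncoding RNAs, 5 were higher and 1 lower with siPRMT5 in Dex, and INTS2 was lower with siHP1γ in Eth (-0.74) and higher by 0.38 with siPRMT5 in Eth. With siPRMT5 in Dex the shares called were 44.4% of the 18 and 46.2% of the 13, beside 42.4% of all genes, and with siHP1γ in Eth 22.2% and 30.8%, beside 31.8%. For the 18 the shares were 38.9% with siPRMT5 in Eth and 16.7% with siHP1γ in Dex, beside 42.1% and 24%. None of the 18 or the 13 passed the test for Dex in siNS cells.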

How the data were processed

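RNA was measured in 18 libraries of MDA-MB-231 cells, 3 in each of 6 conditions, grouped by GEO's labels. The authors made RNA-seq libraries with Lexogen kits, sequenced them on a NextSeq500, mapped the reads to hg38 with Bowtie2 (2.4.2) and deposited raw read counts per gene symbol from htseq-count (HTSeq 0.9.1, versions per the submitters' processing notes). The strand setting, read length and annotation of the counting were not given in the sources used here. A deposited table of the authors' own DESeq2 comparisons (fold changes and p-values) was not used, and 0 columns of other samples were found. Replicates had library numbers, but whether they came from separate cultures was not given, so p-values measure the spread between these libraries.

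Genes that passed filterByExpr over the 6 conditions (15298) were scaled by TMM and tested in 1 fit of all libraries with edgeR's quasi-likelihood test (edgeR 4.0.16, R 4.3.3), which left 12 residual degrees of freedom. P-values were adjusted by Benjamini-Hochberg over all genes tested. All adjusted p-values and SE are from this fit. CPM values are after TMM scaling. Dex comparisons used an adjusted p under 0.01 with a fold change of at least 1.5, the depletions and interactions an adjusted p under 0.05. The scripts were tested on simulated data. Promoter windows came from RefSeq (GRCh38.p14), positions and neighbours from GENCODE 44.

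The members, gene lists and motifs were chosen with earlier results of these data known. Values by library are given for up to 6 members called in each direction of a comparison with the largest fold change and groups that did not overlap, for the 3 with the most counts, for the edge of the rule and for textbook names, with their coding neighbours. Alternatives were DESeq2 (1.42.0), other scalings, other filters, other thresholds, fewer libraries in the fit, a replicate block and leaving out each library. Same-numbered replicates did not deviate together in every pair of conditions, so no block was used. The precision of the members is limited by their counts, which reached down to 1 in a library.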

Additional observations from a re-analysis of the deposited data

Results flagged for a closer look

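LINC00472 differed in its Dex effect between siPRMT5 and siNS cells. The interaction was 0.63 on the log2 scale (SE 0.16, adjusted p = 0.0212 in edgeR's quasi-likelihood test), with Dex effects of 0.67 in siPRMT5 and 0.038 in siNS cells, and all 3 siPRMT5 Dex libraries lay above the other 15. Its exons overlap those of OGFRL1 and MIR30C2, and the part of reads from them was not tested. OGFRL1 had an interaction of 0.39 on the log2 scale (SE 0.17, adjusted p = 0.197) in the same test and did not pass. No group was tested for single libraries far from the others, since each has 3 libraries.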

How the results depend on the processing

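Of the 201 calls of members, 109 held in every fit that left out a library and 102 under every alternative, and no member changed sign. These counts cover only the fits in which the gene was tested, so a gene removed by a filter did not count as a lost call. With at least 10 counts in every library, which left fewer members to test, 29 members were called with siPRMT5 in Dex and 3 with Dex in siHP1γ cells. At an unadjusted p the counts were 14 with Dex in siHP1γ cells, 7 for the HP1γ interaction and 16 for the PRMT5 interaction. With a fold change of at least 2 the Dex counts were 5 in siNS, 3 in siHP1γ and 6 in siPRMT5 cells, and with no fold limit at an adjusted p under 0.05 the siHP1γ count was 13. The cause of these shifts beyond the thresholds and genes tested was not tested. These counts, and those of the fits described below, are given without the share of all genes called in the same fit. They describe how the counts moved with the setting and are not results about the members.

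Leaving out 1 library gave 7 to 11 calls with Dex in siNS cells (7 without siNS Eth replicate 2 or 3), 2 to 5 in siHP1γ and 11 to 18 in siPRMT5 cells. It gave 25 to 39 calls with siHP1γ in Eth, 20 to 28 with siHP1γ in Dex, 41 to 55 with siPRMT5 in Eth, 38 to 48 with siPRMT5 in Dex, and 0 to 3 for the PRMT5 interaction, with 2 without siNS Eth replicate 2 or siNS Dex replicate 2. The count for the HP1γ interaction was 0 in each of these fits.

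With the replicate number as a block, the counts were 9, 4 and 15 for Dex in siNS, siHP1γ and siPRMT5 cells, 38 and 26 for siHP1γ and 54 and 48 for siPRMT5 in Eth and Dex, and 0 and 2 for the HP1γ and PRMT5 interactions. Correlations between same-numbered libraries ran from -0.13 to 0.27.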
